A study of Mus musculus with 8 samples.

Results

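The tubulin isotypes described here are 3 alpha-tubulin genes (Tuba1a, Tuba1b, and Tuba1c) and 7 beta-tubulin genes (Tubb2a, Tubb2b, Tubb3, Tubb4a, Tubb4b, Tubb5, and Tubb6), measured by RNA-seq in mouse embryonic sympathetic ganglia with and without loss of Isl1. They were chosen by gene symbol. All 10 were listed among the 13506 genes of the E11.5 table and among the 13413 genes of the E14.5 table. By listed FPKM, the alpha class was carried mainly by Tuba1a and the beta class mainly by Tubb5 and Tubb3 in every column. Tubb5 made up 54.2% of beta-tubulin FPKM in E11.5 control ganglia and 43.4% in E14.5 wildtype ganglia, and Tubb3 made up 20.9% and 29.7%.

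The study asked what the LIM-homeodomain transcription factor ISL1 controls in developing sympathetic neurons. At E11.5, Isl1 conditional knockout ganglia (CKO; Wnt1-Cre with 2 floxed Isl1 alleles, f/f) were compared with control ganglia that carried the same Wnt1-Cre and Isl1 +/+, and both had the Rosa26-tdTomato reporter. At E14.5, hypomorphic ganglia (Isl1 f-neo/f-neo, which lowers Isl1 expression) were compared with wildtype ganglia (Isl1 +/+). Wnt1-Cre acts in neural crest, so deletion in the CKO reaches the lineage of both the neurons and the glia of the ganglion, whereas the hypomorphic allele is present in every cell of the embryo. The labels call the E11.5 mutant Isl1-/-, the E14.5 mutant Isl1 mutation, and both control groups wild type, and the alleles come from the methods of the study. Neither sex nor batch is given. By the labels, ganglia of about 10 embryos of 1 genotype were pooled for RNA (the methods of the study give this number as the lower end of a range), and 2 libraries were made per genotype. The deposited tables hold 1 FPKM value (fragments per kilobase of transcript, scaled to the number of mapped fragments) per gene and genotype, with the 2 libraries combined. No spread between libraries and no sequencing depth could therefore be obtained. No difference below has a test, and whether isotypes that lie close together in level differ beyond the spread cannot be judged. Isl1 itself was listed at 133 FPKM in control and 40.01 FPKM in CKO ganglia at E11.5, and at 162 FPKM in wildtype and 83.1 FPKM in hypomorphic ganglia at E14.5.

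Microtubules are polymers of alpha- and beta-tubulin heterodimers, and they form the tracks and the scaffold of the axon as well as the mitotic spindle. Vertebrates have several genes for each subunit, the isotypes, whose proteins are nearly alike in the folded body and differ mostly in a short acidic C-terminal tail that lies on the microtubule surface and carries most of the enzymatic modifications. Tuba1a and Tubb3 are the classical isotypes of developing neurons, Tubb2a, Tubb2b, and Tubb4a are enriched in the nervous system, and Tuba1b, Tuba1c, Tubb4b, Tubb5, and Tubb6 are made in many dividing and non-dividing cell types.

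The ends of the coding sequences of 6 beta genes are shown because they encode these tails. Each line holds the last 60 coding bases including the stop codon, 5' to 3' on the strand of the gene, from the mm9 annotation (GENCODE vM1). Capitals mark bases that differ from, or have no counterpart in, Tubb5 in an alignment of the whole coding sequences:
Tubb5: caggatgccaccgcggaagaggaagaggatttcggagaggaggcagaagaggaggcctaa
Tubb2a: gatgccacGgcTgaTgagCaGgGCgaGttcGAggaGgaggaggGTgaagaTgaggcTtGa
Tubb2b: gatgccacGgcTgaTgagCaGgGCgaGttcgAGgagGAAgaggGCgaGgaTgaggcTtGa
Tubb3: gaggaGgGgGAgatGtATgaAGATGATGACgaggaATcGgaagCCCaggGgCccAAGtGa
Tubb4a: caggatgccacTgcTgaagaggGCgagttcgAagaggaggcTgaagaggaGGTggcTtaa
Tubb4b: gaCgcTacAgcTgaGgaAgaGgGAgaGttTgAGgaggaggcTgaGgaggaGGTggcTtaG
Tubb3 had the most bases in capitals of these genes, 29 of 60, and Tubb4a the fewest, with 10. Tubb2a had 16, Tubb2b 19, and Tubb4b 20. Where an alignment has gaps, the marks depend on their placement, and a stretch with the same bases is marked differently in Tubb2a and Tubb2b. Small differences between these counts therefore cannot be read.

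Over the whole coding sequence, the 3 pairs of alpha genes were 97.1% to 98.3% identical. The 21 pairs of beta genes ranged from 80.2% to 96.5% with a median of 83.5%, and the pair with the highest identity was Tubb2a and Tubb2b, with 47 differing positions. This likeness bears on every value below, because a read of 90 bases, the length used in the study, can lie wholly in a stretch that several genes share. Of all 90-base windows of the annotated transcript, 57.4% in Tuba1a, 76.8% in Tuba1b, and 54.9% in Tuba1c also occurred elsewhere in the mm9 genome or in another annotated transcript. The share was 40.1% in Tubb2a, 38.1% in Tubb2b, and 33.7% in Tubb4b. It was 1.74% in Tubb3 and 0% in Tubb4a, Tubb5, and Tubb6. The 3 alpha genes lie together on chromosome 15, Tuba1a at chr15:98780272-98783982 and Tuba1b at chr15:98761856-98764996 on the minus strand, and Tuba1c at chr15:98860322-98868536 on the plus strand. Tubb2a (chr13:34166170-34169877) and Tubb2b (chr13:34218877-34222223) are neighbours on the minus strand of chromosome 13. Each of the 10 annotated transcripts has 4 exons. By the methods of the study, expression was computed from reads that mapped to 1 place, so reads lying wholly in a shared stretch were left out by that description. The levels of Tuba1a, Tuba1b, Tuba1c, Tubb2a, Tubb2b, and Tubb4b then rest on the remainder of each transcript and are uncertain, whereas Tubb3, Tubb4a, Tubb5, and Tubb6 have little or no shared sequence. The second read of a pair can separate some copies and was not modelled.

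**Figure D1:**
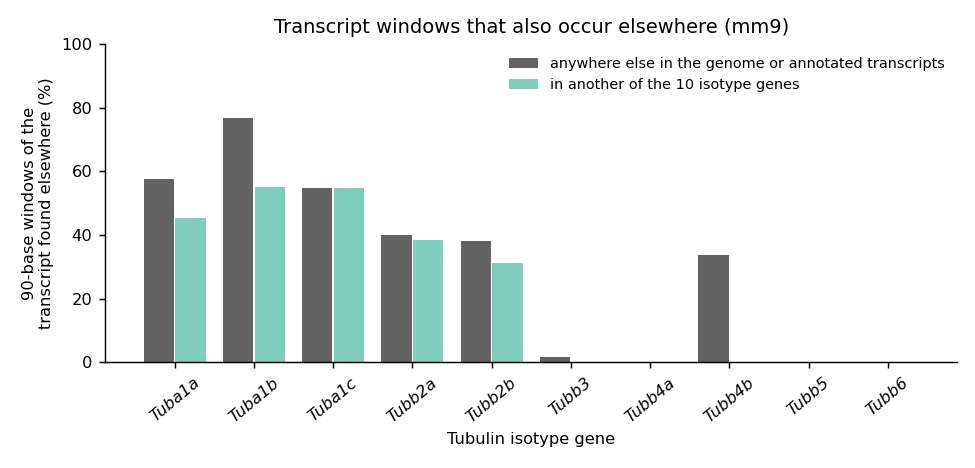
Percent of the 90-base windows of each isotype's mm9 transcript (y axis, for the 10 genes on the x axis) that also occurred anywhere else in the genome or annotated transcripts (grey bars) or in another of the 10 isotype genes (green bars). The 3 alpha genes stood at 54.9% to 76.8% by the grey bars, and Tubb4a, Tubb5, and Tubb6 at 0%.

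Levels are given as FPKM, which is per transcript length. Reads left out of shared stretches can lower the FPKM of a gene. Comparisons between genes of a table are therefore uncertain where a gene has shared sequence, and orders below are of listed FPKM. The 2 tables were normalized separately, so levels across stages are set side by side only. The isotype with the highest listed FPKM in all 4 columns was Tubb5, the broadly expressed class I beta-tubulin encoded on the minus strand at chr17:35970871-35975251. It was listed at 1704 FPKM in E11.5 control, 1841 FPKM in CKO, 1772 FPKM in E14.5 wildtype, and 1682 FPKM in hypomorphic ganglia, the narrowest range relative to its level among the 10 isotypes. By level it was the 14th gene of the E11.5 control column and the 8th gene of the E14.5 wildtype column. Tuba1a, the alpha-tubulin of growing neurons, stood at 1399, 1612, 1199.9, and 1001 FPKM in the same order, next to Tubb5 in all columns but E14.5 wildtype. Tubb3, the neuronal class III beta-tubulin on the plus strand at chr8:125935324-125945915, was listed at 658, 767, 1212, and 921 FPKM, and in the E14.5 wildtype column it lay just above Tuba1a.

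Tubb2b, needed for neuronal migration in the cortex, was listed at 341 FPKM in E11.5 control, 451 FPKM in CKO, 488 FPKM in E14.5 wildtype, and 409 FPKM in hypomorphic ganglia. Its neighbour Tubb2a was listed at 116, 163, 282, and 225 FPKM in that order. Tubb4a (chr17:57219489-57227205, minus strand), the class IV beta-tubulin of neurons and myelinating glia, was listed at 84.2, 90.4, 238, and 182 FPKM. These 3 isotypes, and also Tubb3 and Tubb6, had both E14.5 values above the E11.5 control value. The share of all genes with that order was not counted either.

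Tuba1b, an alpha-tubulin of most cell types, stood at 311 FPKM in E11.5 control, 357 FPKM in CKO, 61.0 FPKM in E14.5 wildtype, and 62.9 FPKM in hypomorphic ganglia. Tubb4b (chr2:25077680-25080222, minus strand), which is also a component of cilia, stood at 213, 276, 56.2, and 55.5 FPKM. Tuba1c, the lowest of the 3 alpha genes by listed FPKM, stood at 25.2, 40.2, 2.80, and 3.62 FPKM. For these 3 genes, and also for Tuba1a, both E14.5 columns lay below both E11.5 columns. The tables were normalized separately, and the share of all genes with this order was not counted. Tubb6, a divergent class V beta-tubulin at low level, stood at 29.5, 47.7, 35.3, and 35.2 FPKM, with the CKO value above the other 3.

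**Figure D2:**
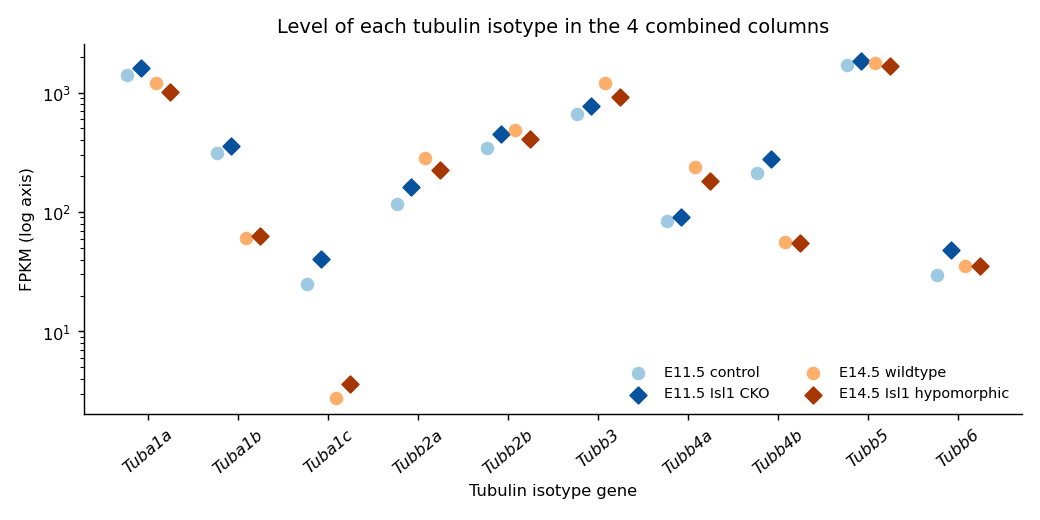
FPKM of each tubulin isotype (x axis) on a log axis, with circles for E11.5 control and E14.5 wildtype ganglia and diamonds for E11.5 Isl1 CKO and E14.5 Isl1 hypomorphic ganglia. Each point is 1 value that combines 2 libraries, so no error bars can be drawn; Tubb5 spans 1682 to 1841 FPKM while Tuba1c spans 2.80 to 40.2 FPKM.

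The share of an isotype within its class does not depend on how a column was scaled. Tuba1a held 80.6% of alpha-tubulin FPKM in E11.5 control ganglia and 80.2% in CKO ganglia, and 94.95% in E14.5 wildtype and 93.8% in hypomorphic ganglia. Tuba1b held nearly all of the remainder, 17.9%, 17.8%, 4.83%, and 5.89% in the same order. Tuba1c held 1.45%, 1.999%, 0.221%, and 0.339%. The ratio of Tuba1a to Tuba1b was 4.50 and 4.52 at E11.5 and 19.7 and 15.9 at E14.5, so within the alpha class the columns differed more by table than by genotype. Since these 3 genes share much of their sequence, the split rests on the stretches that tell them apart and is uncertain.

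In the beta class, Tubb5 held 54.2% of FPKM in E11.5 control, 50.6% in CKO, 43.4% in E14.5 wildtype, and 47.9% in hypomorphic ganglia. Tubb3 held 20.9%, 21.1%, 29.7%, and 26.2%. The genotype difference in the Tubb5 share was -3.52 percentage points at E11.5 and 4.54 percentage points at E14.5, and for Tubb3 it was 0.181 and -3.45 percentage points. At E14.5 the mutant composition thus lay between those of E14.5 wildtype and E11.5 control for both genes. Tubb2b held 10.8%, 12.4%, 12.0%, and 11.7%, the smallest relative range in the class. Tubb2a held 3.69%, 4.48%, 6.90%, and 6.41%, and Tubb4a held 2.67%, 2.48%, 5.82%, and 5.18%. Tubb4b held 6.78%, 7.59%, 1.38%, and 1.58%. Tubb6 stayed near the bottom of the class, at 0.939%, 1.31%, 0.864%, and 1.003%.

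The 4 isotypes enriched in the nervous system (Tubb2a, Tubb2b, Tubb3, and Tubb4a) together held 38.1% of beta-tubulin FPKM in E11.5 control, 40.5% in CKO, 54.4% in E14.5 wildtype, and 49.5% in hypomorphic ganglia. The ratio of Tubb4a to Tubb4b was 0.394 and 0.328 at E11.5 and 4.22 and 3.28 at E14.5. Among only the 4 beta genes with little or no shared sequence (Tubb3, Tubb4a, Tubb5, and Tubb6, a class total chosen after the shared windows had been counted), the Tubb3 share was 26.6%, 27.9%, 37.2%, and 32.7%, and the Tubb5 share was 68.8%, 67.0%, 54.4%, and 59.6%. The order of the columns was the same for Tubb3 and for Tubb5 as with all 7 genes, so the pattern of these shares is present without the genes that share sequence.

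**Figure D3:**
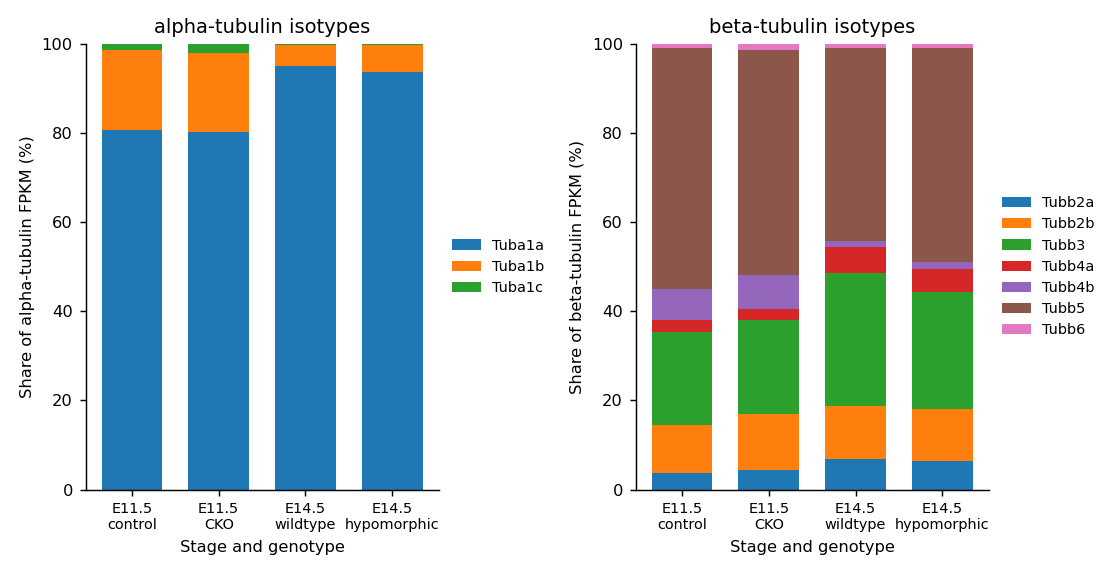
Share of each isotype in the summed FPKM of its class (y axis, percent, adding to 100 in each bar) for the 3 alpha genes (left) and the 7 beta genes (right) in the 4 columns on the x axis. The Tuba1a segment covers 80.6% and 80.2% of the alpha bars at E11.5 and 94.95% and 93.8% at E14.5, and the Tubb3 segment of the beta bars covers 20.9%, 21.1%, 29.7%, and 26.2%.

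Summed over the class, alpha-tubulin stood at 1735 FPKM in E11.5 control, 2010 FPKM in CKO, 1264 FPKM in E14.5 wildtype, and 1068 FPKM in hypomorphic ganglia. Summed beta-tubulin stood at 3147, 3636, 4084, and 3509 FPKM. The ratio of beta to alpha was 1.81 in both genotypes at E11.5, and 3.23 in wildtype and 3.29 in hypomorphic ganglia at E14.5. The alpha genes have more shared sequence than Tubb5 and Tubb3, so left-out reads can lower the alpha sum more than the beta sum. An excess of beta-tubulin RNA cannot be read from this ratio. Within a stage the genotypes were thus close in this ratio although both sums differed. All 10 isotypes made up 1.03%, 0.915%, 1.19%, and 1.04% of the FPKM listed in the 4 columns. With the erythroid genes described below left out of the column sums, these values were 1.05%, 1.03%, 1.21%, and 1.05%.

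The E11.5 comparison asked how tubulin levels stood after Isl1 loss at the time of early neuronal differentiation. All 10 isotypes were listed at a higher FPKM in CKO than in control ganglia, 2 of them by at least 1.5-fold, while 5 of the 10 turned to the other side of 0 when the erythroid genes were left out of the scaling. The 2 were Tubb6 (67550371 to 67562402 on the plus strand of chromosome 18, mm9), with a log2 ratio of 0.69, and Tuba1c, with a log2 ratio of 0.67. Ratios are of FPKM with a pseudocount of 0.1. Of all genes in the table, 18.9% were at least 1.5-fold higher in CKO ganglia and 12.9% at least 1.5-fold lower, and 2 of 10 isotypes is close to the first of these shares. The median log2 ratio was 0.30 over the isotypes and 0.05 over all genes, whose quartiles were -0.31 and 0.45.

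Erythroid genes moved with these values, and 11 of the 12 listed, of 15, were at least 1.5-fold higher in CKO ganglia. They made up 2.29% of the FPKM of the control column and 11.2% of that of the CKO column, whose sums over all genes were 476289 and 617263 FPKM. Hba-x, an embryonic alpha-like globin, was listed at 2572 FPKM in control and 53627 FPKM in CKO ganglia, and Hbb-y, an embryonic beta-like globin, was listed at 7552 FPKM in control and at 0 in CKO ganglia. An exact 0 beside so high a Hba-x value can be a failed estimate, in which case the 11.2% is too low. With both columns rescaled to the same sum without the erythroid genes, the log2 ratios of all 10 isotypes were lower by 0.24, the median of all genes was lower by 0.23 and stood at -0.18, and the median of the isotypes was 0.06. On that scale 12.2% of all genes were at least 1.5-fold higher and 22.5% at least 1.5-fold lower, 0 isotypes passed 1.5-fold in either direction, Tubb6 was at 0.45, and Tuba1c was at 0.44. The part of erythroid cells in the isotype values was otherwise not tested.

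The beta-tubulins of the nervous system did not share 1 value at E11.5. The log2 ratio of CKO over control was 0.49 for Tubb2a and 0.40 for Tubb2b as deposited, and 0.25 and 0.17 after rescaling. It was 0.22 for Tubb3 and 0.10 for Tubb4a as deposited, and -0.02 and -0.13 after rescaling, so the sign of these 2 depended on the scale. Tubb4b stood at 0.37 and, rescaled, at 0.13. The 2 isotypes with the highest listed FPKM also changed sign with the scale, from 0.21 to -0.03 for Tuba1a and from 0.11 to -0.12 for Tubb5. So did Tuba1b, from 0.20 to -0.04. The lowest ratios of the 10 were those of Tubb4a and Tubb5. Rescaling lowered all 10 by nearly the same amount, so it kept this order by construction. The highest ratios were those of Tubb6 and Tuba1c, which are among the members with the lowest listed FPKM.

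The E14.5 comparison asked the same of a later stage, with Isl1 lowered and not deleted. Here 0 of 10 isotypes were 1.5-fold higher and 0 were 1.5-fold lower in hypomorphic ganglia, against 2.89% and 2.12% of all genes. The isotypes enriched in neurons were listed lower by smaller amounts. Tubb3 was 24.1% lower, with a log2 ratio of -0.40, Tubb4a was 23.5% lower, with -0.39, and Tubb2a was 20.2% lower, with -0.33. Tuba1a and Tubb2b were both at a log2 ratio of -0.26. These 5 ratios were negative as deposited and after rescaling without erythroid genes, where they ran from -0.37 for Tubb3 to -0.23 for Tubb2b and Tuba1a.

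The genes of this table lay close together, with quartiles of -0.11 and 0.13 and a median of 0.00 over all genes. Against that distribution, 4.34% of all genes had a lower log2 ratio than Tubb3, 4.57% a lower one than Tubb4a, 6.20% than Tubb2a, 9.09% than Tuba1a, and 9.36% than Tubb2b. Tubb5, Tubb4b, and Tubb6 were near 0, with log2 ratios of -0.08, -0.02, and -0.003, and those of Tubb4b and Tubb6 were 0.01 and 0.03 after rescaling. Tuba1b was at 0.04. Tuba1c was at 0.36, from 2.80 FPKM in wildtype to 3.62 FPKM in hypomorphic ganglia, the lowest levels of any isotype. Erythroid genes made up 1.26% of the FPKM in wildtype and 1.55% in hypomorphic ganglia, with the globin Hbb-b1 at 2638 and 3019.8 FPKM. The median of the 10 isotypes was -0.17, with 8 of 10 below 0 as deposited and 6 of 10 after rescaling.

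**Figure D4:**
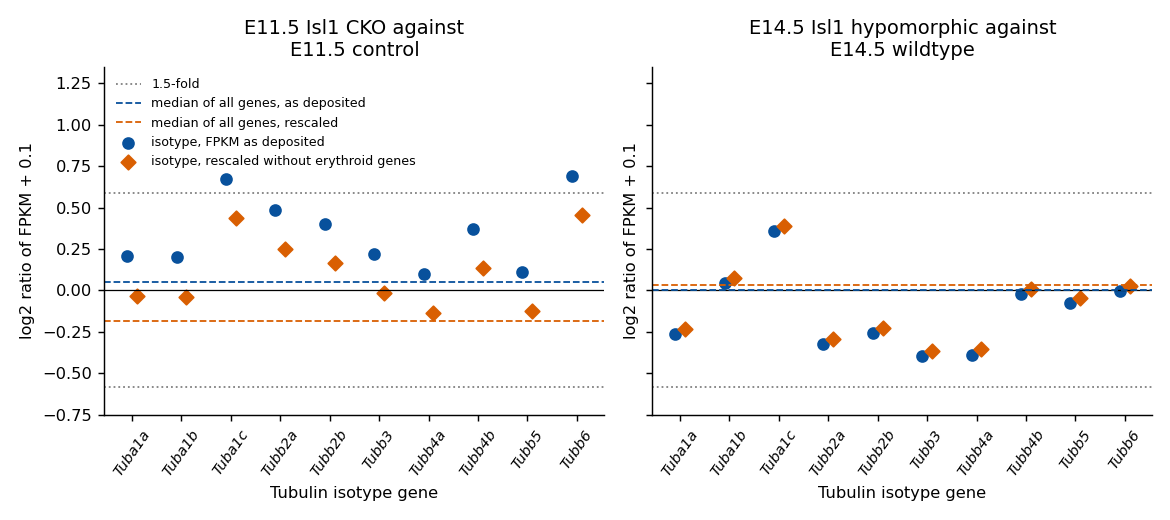
Log2 ratio of FPKM (pseudocount 0.1) of mutant over control for each isotype at E11.5 (left) and E14.5 (right), as deposited (blue circles) and rescaled to equal sums without erythroid genes (orange diamonds), with dashed lines at the medians of all genes and dotted lines at 1.5-fold. At E11.5 the ratios run from 0.10 to 0.69 as deposited and 5 of the 10 lie below 0 after rescaling; at E14.5 Tubb3, Tubb4a, Tubb2a, Tuba1a, and Tubb2b lie between -0.40 and -0.23 on both scales.

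Placed side by side, the 2 comparisons gave Tubb3 a log2 ratio of 0.22 at E11.5 (-0.02 rescaled) and -0.40 at E14.5 (-0.37 rescaled). Tubb4a was at 0.10 (-0.13 rescaled) and -0.39 (-0.36 rescaled), Tubb2a at 0.49 (0.25 rescaled) and -0.33 (-0.30 rescaled), and Tubb2b at 0.40 (0.17 rescaled) and -0.26 (-0.23 rescaled). For these 4 genes the ratio was thus lower at E14.5 than at E11.5 on either scale, and only Tubb2a and Tubb2b were of opposite sign on both. The alleles differ between the stages (deletion in neural crest and lowered expression in all cells), and stage and allele cannot be told apart. The difference between the stages was not tested.

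Control ganglia at E11.5 and wildtype ganglia at E14.5 also differ in more than age, because they differ in Cre, reporter, and dissection, and their tables were normalized separately. The tables share 12728 gene symbols, while 777 are listed only at E11.5 and 684 only at E14.5. Shares within a class do not depend on the scaling of a column, but they do depend on which rows are counted in the class. From E11.5 control to E14.5 wildtype, the share of Tuba1a was higher by 14.3 percentage points, that of Tubb3 by 8.77, that of Tubb2a by 3.21, that of Tubb4a by 3.14, and that of Tubb2b by 1.12. Those of Tuba1b, Tubb5, and Tubb4b differed by -13.1, -10.8, and -5.41 percentage points. Tubb2a-ps2, a transcribed pseudogene of Tubb2a by the RefSeq annotation, is listed only in the E14.5 table, at 473 FPKM in wildtype and 402 FPKM in hypomorphic ganglia, more than Tubb2a itself. With this row added to the beta class, the beta to alpha ratio at E14.5 was 3.61 in wildtype and 3.66 in hypomorphic ganglia. With all beta-tubulin rows in the class total, Tubb3 held 20.9% in E11.5 control and 26.6% in E14.5 wildtype ganglia. On that total Tubb5 held 54.1% and 38.9%, and Tubb2b held 10.8% and 10.7%. The Tubb2b share was then slightly lower at E14.5, not higher. Windows identical to a stretch on chromosome 12 made up 6.09% of Tubb2a and 8.84% of Tubb2b.

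Apart from Tubb2a-ps2, the other alpha- and beta-tubulin genes listed were Tuba4a and Tubb1. Tuba4a, an alpha-tubulin abundant in platelets and mature neurons, was listed at 4.67 FPKM in control and 33.5 FPKM in CKO ganglia at E11.5 (log2 ratio 2.82), and at 2.56 FPKM in wildtype and 3.10 FPKM in hypomorphic ganglia at E14.5. Tubb1, the beta-tubulin of megakaryocytes and platelets, was listed only at E11.5, at 0.783 FPKM in control and 3.44 FPKM in CKO ganglia (log2 ratio 2.01), and is named here after its values were seen. Markers of megakaryocytes and platelets stood higher in the same column. In a list written after these 2 values were seen, 6 of the 7 genes listed at E11.5, of 10, were at least 1.5-fold higher in CKO ganglia (6 rescaled). This stands beside 18.9% of all genes (12.2% rescaled). The summed FPKM of the 7 was 22.0 in control and 82.8 in CKO ganglia. Pf4, platelet factor 4, was listed at 8.52 FPKM in control and 41.0 FPKM in CKO ganglia, and Ppbp, pro-platelet basic protein, at 3.13 and 16.3 FPKM. Their part in the Tuba4a and Tubb1 values was not tested. Only 5 of the 10 had a row in the E14.5 table, with a median log2 ratio of 0.73. Of these, 4 were at least 1.5-fold higher in hypomorphic ganglia, beside 2.89% of all genes, and only Pf4 of the 4 reached an FPKM of 5. Gp1bb, the most abundant of the list there, went the other way, from 22.2 FPKM in wildtype to 15.9 FPKM in hypomorphic ganglia. With it included, the list summed to 33.7 FPKM in wildtype and 35.1 FPKM in hypomorphic ganglia.

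These 2 genes and those that fold, modify, nucleate, or bind tubulin were counted in 11 lists, of which 80 of 92 genes were listed at each stage. At E11.5, 4 of the 80 were at least 1.5-fold higher in CKO ganglia and 10 were at least 1.5-fold lower, 5% and 12.5%, beside 18.9% and 12.9% of all genes. After rescaling, 3 were higher and 26 lower, 3.75% and 32.5%, beside 12.2% and 22.5% of all genes. At E14.5, 0 passed 1.5-fold in either direction on either scale, beside 2.89% and 2.12% of all genes. The folding machinery had small ratios at both stages. The CCT chaperonin, which folds alpha- and beta-tubulin, had a median log2 ratio of 0.16 over its 8 subunits at E11.5 (-0.08 rescaled) and 0.00 at E14.5. The tubulin folding cofactors, which assemble the heterodimer, had a median of 0.28 at E11.5 (0.05 rescaled) and -0.11 at E14.5, and 1 of 7 passed 1.5-fold, Tbcel, a cofactor E-like protein, at 7.04 FPKM in control and 13.7 FPKM in CKO ganglia. Prefoldin, which hands tubulin to CCT, had 0 of 5 listed genes past 1.5-fold at either stage on either scale.

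Proteins that bind microtubules or free dimers stood lower than tubulin itself at E11.5. All 12 lattice-binding proteins had a log2 ratio below 0 as deposited, with a median of -0.43 (-0.65 rescaled), and 5 were at least 1.5-fold lower (8 rescaled). Rescaling lowers these ratios, so it could not bring any of them above 0. The median of all genes was 0.05 as deposited and -0.18 rescaled, and the share of all genes below 0 was not counted. Map1b, a microtubule-associated protein of growing axons, was listed at 205 FPKM in control and 93.0 FPKM in CKO ganglia. Dcx, doublecortin of migrating neurons, was listed at 54.7 and 29.0 FPKM, and Map7d2 at 8.39 and 4.49 FPKM. Stathmins, which hold free tubulin dimers, and CRMPs (Dpysl genes), which carry them, had a median of -0.46 (-0.70 rescaled), with all 7 below 0 and 2 at least 1.5-fold lower (4 rescaled). The 2 were Stmn4, at 117 FPKM in control and 52.0 FPKM in CKO ganglia, and Dpysl2, at 62.1 and 39.9 FPKM. Over the 10 tubulin isotypes the median was 0.30 (0.06 rescaled), so it lay on the other side of 0 from the medians of these 2 groups on both scales.

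Of the modifying enzymes, 18 of 25 were listed at E11.5, and 1 passed 1.5-fold in each direction, whereas 0 were higher and 5 were lower after rescaling. Ttl, the tubulin tyrosine ligase that acts on the end of alpha-tubulin, was listed at 18.8 FPKM in control and 11.4 FPKM in CKO ganglia. Sirt2, a tubulin deacetylase, was listed at 23.5 and 35.9 FPKM (log2 ratio 0.61, and 0.38 rescaled, which is under 1.5-fold). The gamma-tubulin ring complex and its partners, which nucleate microtubules, had a median of -0.31 (-0.54 rescaled) with 2 of 10 at least 1.5-fold lower (4 rescaled), the centrosome protein Pcnt at 7.73 and 3.68 FPKM and Mzt1 at 60.2 and 36.7 FPKM. Of the gamma-, delta-, and epsilon-tubulin genes 0 of 4, and of the severing enzymes 0 of 7 passed 1.5-fold as deposited, and 2 of 4 and 3 of 7 were at least 1.5-fold lower after rescaling.

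At E14.5 the lists that bind tubulin had medians on the same side of 0 as Tubb3. Stathmins and CRMPs had a median log2 ratio of -0.22 (-0.19 rescaled), with 5 of 7 below 0, and the lattice-binding proteins had -0.18 (-0.15 rescaled), with 10 of 12 below 0. The ring complex had a median of 0.14 with 9 of 10 above 0, and the modifying enzymes -0.10 with 15 of 19 below 0. The 7 folding cofactors were all below 0 as deposited and 6 were after rescaling. Over all genes at E14.5 the median was 0.00 (0.03 rescaled), with quartiles of -0.11 and 0.13 as deposited. The medians of the modifying enzymes and of the folding cofactors lay within these quartiles. The share of all genes on each side of 0 was not counted.

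**Figure D5:**
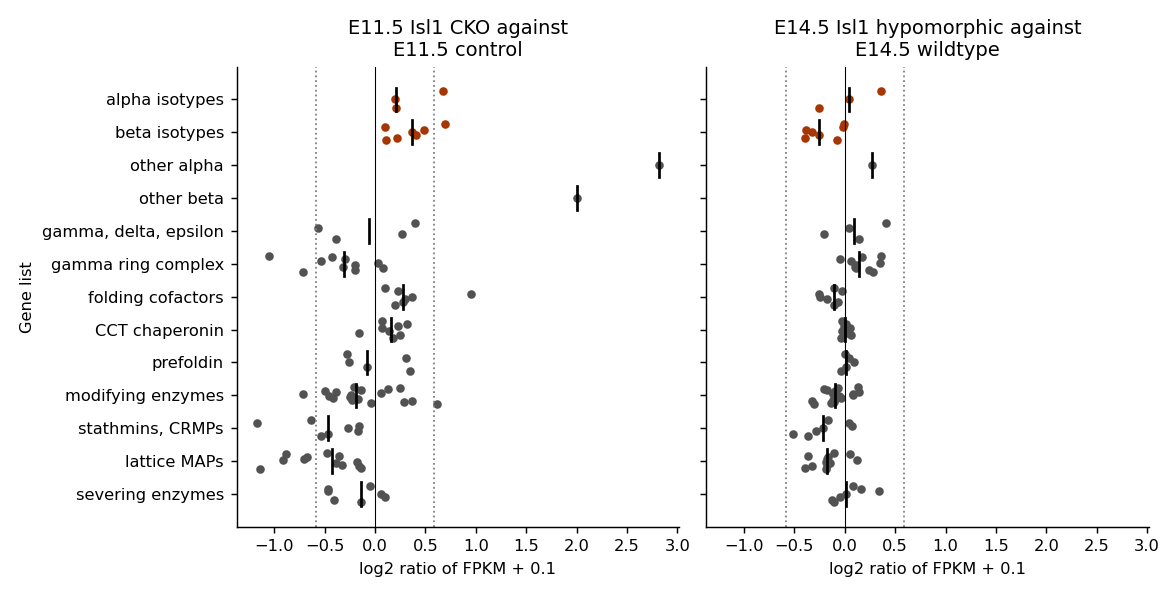
Log2 ratio of FPKM (pseudocount 0.1, as deposited) of mutant over control on the x axis for each gene of 13 lists on the y axis, at E11.5 (left) and E14.5 (right), with the 10 tubulin isotypes in brown, black bars at list medians, and dotted lines at 1.5-fold. At E11.5 all 12 lattice MAPs (microtubule-associated proteins) lie below 0 while the isotypes lie above 0, 5 of which pass below 0 after rescaling; at E14.5 every point lies within 1.5-fold.

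Cell type markers moved with the same columns, and fewer cells of a type and less RNA per cell cannot be told apart in ganglia measured whole. The counts of all cell type lists stand beside 18.9% of all genes at least 1.5-fold higher and 12.9% lower at E11.5. After rescaling these shares were 12.2% and 22.5%, and at E14.5 they were 2.89% and 2.12% as deposited. Sympathetic neuron genes, which were all listed (14 of 14), reached a sum of 4399 FPKM in control ganglia against 2957 FPKM in the CKO, with 6 of 14 at least 1.5-fold lower (9 rescaled), and to 7354 FPKM in wildtype and 7049 FPKM in hypomorphic ganglia, with 2 of 14. By the mean of the 2 columns, their most abundant genes at E11.5 were Nefl, a neurofilament, at 1008 and 507 FPKM, and Dbh, which makes noradrenaline, at 543 and 594 FPKM, and 12 of 14 were below 0 as deposited. At E14.5 they were Nefm, at 1130 and 1424 FPKM, and Nefl, at 1027 and 1241 FPKM, both higher in hypomorphic ganglia, while 8 of 14 were below 0. Among those 8, named after their values were seen, were Gap43, a growth cone protein, at 1235 and 962 FPKM, and Prph, peripherin, at 921 and 651 FPKM, with log2 ratios of -0.36 and -0.50 beside -0.40 for Tubb3.

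Cycling genes reached a sum of 1548 FPKM in control ganglia against 864 FPKM in the CKO, with 12 of 16 at least 1.5-fold lower (15 rescaled), and to 523 FPKM in wildtype and 767 FPKM in hypomorphic ganglia, with 3 of 16 at least 1.5-fold higher (6 rescaled). Among them, Pcna, the DNA polymerase clamp, was listed at 310 and 196 FPKM at E11.5, Top2a, a topoisomerase, at 66.3 and 101 FPKM at E14.5, and Rrm2, a ribonucleotide reductase subunit, at 192 and 77.0 FPKM at E11.5 and at 54.4 and 89.3 FPKM at E14.5. Beside these, the broadly expressed isotypes Tuba1b, Tuba1c, Tubb4b, Tubb5, and Tubb6 had log2 ratios of 0.20, 0.67, 0.37, 0.11, and 0.69 at E11.5 (-0.04, 0.44, 0.13, -0.12, and 0.45 rescaled). At E14.5 they were at 0.04, 0.36, -0.02, -0.08, and -0.003 (0.07, 0.39, 0.01, -0.05, and 0.03 rescaled). Neural crest and glial genes reached 274 FPKM in control ganglia against 604 FPKM in the CKO, with 9 of 10 at least 1.5-fold higher (8 rescaled). At E14.5 they summed to 459 and 525 FPKM, with 0 of 10 past 1.5-fold, 9 above 0 and 1 below, and a median log2 ratio of 0.14 (0.17 rescaled). Fabp7, of glial progenitors, stood at 90.9 and 208 FPKM at E11.5 and at 257 and 295 FPKM at E14.5, and Ednrb, an endothelin receptor, at 89.98 and 200.3 FPKM and at 85.2 and 105 FPKM.

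Mesenchymal genes summed to 779 and 1323 FPKM at E11.5, with 6 of 10 at least 1.5-fold higher (3 rescaled) and Col1a2 at 193 and 352 FPKM and Col1a1 at 175 and 303 FPKM. At E14.5 they summed to 1581 and 1763 FPKM, with 0 of 10 past 1.5-fold. All 10 were above 0 there, with a median log2 ratio of 0.28 (0.31 rescaled). Trophoblast genes summed to 0.271 and 56.3 FPKM at E11.5, where 2 of 8 were listed, and 0 of 8 were listed at E14.5. The summed endothelial, skeletal muscle, macrophage, sensory neuron, and visceral endoderm and liver genes each stood between 5.05 and 292 FPKM in every column, and all 5 sums were higher in CKO than in control ganglia. At E14.5, endothelial genes summed to 99.0 FPKM in wildtype and 138 FPKM in hypomorphic ganglia, with 8 of 8 above 0 and a median log2 ratio of 0.47, and visceral endoderm and liver genes to 24.1 and 38 FPKM, with 3 of 4 listed at least 1.5-fold higher (4 rescaled). The part of these cells in the tubulin values was not tested.

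Among 1086 genes that reached an FPKM of 50 in all 4 columns, the genes nearest to Tubb3 in their pair of log2 ratios were Apbb1, a binding partner of the amyloid precursor protein, Tagln3, a neuronal actin-binding protein, and Mrpl34, a mitochondrial ribosomal protein. Apbb1 was at 0.27 and -0.36, and its larger difference from Tubb3 was 0.05. Tagln3 was at 0.13 and -0.30, and Mrpl34 at 0.17 and -0.28. The nearest to Tubb5 were Ndufs7, of respiratory complex I, Atp5k, of the ATP synthase, and Dynlrb1, a dynein light chain, at differences of 0.01 to 0.02, which is a likeness over only 2 comparisons and near the middle of all genes.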

How the data were processed

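RNA-seq of polyA RNA from sympathetic ganglia was analysed in 4 groups of 2 libraries, grouped by the genotype and stage in the labels. The authors ran cuffdiff to obtain the deposited FPKM values, 1 column per genotype, with both libraries combined. Per the study's methods, reads of 90 bases, paired, were aligned to mm9 with TopHat, and reads that mapped to 1 place were used. The submitters' processing notes name TopHat 1.3.1, Cuffdiff 1.3.0, and the build dm3, which is not a mouse genome. The tables also hold cuffdiff's log2 fold changes and p-values, which were not used. No depth is given, so precision is unknown.

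Log2 ratios of FPKM were computed with a pseudocount of 0.1 and counted past 1.5-fold. A minimum FPKM of 1 in at least 1 genotype left out 0 genes. Shares were computed from FPKM without a pseudocount. Alternatives were other pseudocounts, folds, filters, scalings, and class totals. Rescaled values set both columns of a table to the same sum without the erythroid genes. Transcripts, coordinates, and coding sequences came from the mm9 genome with GENCODE vM1, where all 10 isotypes matched, with Tubb4a annotated as Tubb4 and Tubb4b as Tubb2c. Windows of 90 bases were searched on both strands for identical matches, and coding sequences were aligned globally. Coding ends of the alpha genes are not reported here.

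The isotypes and the gene lists were chosen with earlier results of these data known. Named were all 10 isotypes, Isl1, from each tubulin or microtubule list at most 3 genes per direction and stage past 1.5-fold that reached an FPKM of 5, the 2 most abundant genes of each cell type list (printed only for the lists with the larger sums), and the 3 genes nearest to Tubb3 and to Tubb5, by the larger absolute difference of the 2 log2 ratios. The calculations were tested on simulated data. Python 3.11.15, numpy 2.4.6, pandas 2.3.3, Biopython 1.88, numba 0.67.0, and matplotlib 3.10.9 were used.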

Additional observations from a re-analysis of the deposited data

How the results depend on the processing

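The scaling and the fold threshold changed the summary values. After rescaling without erythroid genes, the count of isotypes higher in E11.5 CKO ganglia was 0 and their median log2 ratio was 0.059. Over the 11 microtubule lists at E11.5, 10 genes were at least 1.5-fold lower as deposited and 26 after rescaling. At a 2-fold threshold the count of higher isotypes was also 0, and at a 1.2-fold threshold it was 5. At E14.5 the 1.2-fold threshold gave 1 isotype higher and 3 lower in hypomorphic ganglia. The remaining 62 summary values under an alternative stayed within 1.5 times the count, share, or ratio given, or within 0.1 of the median. Of values for single isotypes, 195 stayed within 1.5-fold, and 32 shares moved by more because the class total left out its most abundant gene. The 1.5-fold margin is wider than the shifts under rescaling, so it does not register changes of sign. Such changes occurred after rescaling for 5 isotypes at E11.5 and for Tubb4b and Tubb6 at E14.5. Tuba1c has no value at E14.5 when an FPKM of 5 or more is required. The class total of Tubb3, Tubb4a, Tubb5, and Tubb6 was chosen after seeing the data. No paired analysis was possible because each column combines the 2 libraries of a genotype, and for the same reason neither library could be left out. The FPKM columns give neither depth nor spread, so no difference computed here carries an error.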
